A study of Mus musculus with 6 samples.

Results

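Abundant long noncoding RNAs (lncRNAs) of lung ILC2s were followed after exposure to melatonin. These are the autosomal genes that the GENCODE annotation classes as lncRNA and whose normalized count averaged at least 100 over the 6 samples. Small nucleolar RNA hosts (*Gas5*, *Zfas1*, *Epb41l4aos* and the *Snhg* genes) were left aside by name. *2410006H16Rik*, whose exons hold *Snord49a*, *Snord49b* and *Snord65* on the same strand, was not among these names and stayed in. The rule gave 76 of the 16381 genes listed, and of 987 autosomal lncRNA genes listed. It left out 9 snoRNA hosts and 4 genes on X or Y that also reached a mean of 100. Members were thus selected on their measured level, without regard to treatment, and levels are given as a description. All 76 passed the filter on low values. The mean of 6 members was under 100 with melatonin, and all 6 of them fell. The mean of 7 was under 100 with vehicle, and 5 of those rose. These members reached the rule through the group in which they were high.

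ILC2s are tissue lymphocytes that answer the alarmin IL-33 with type 2 cytokines. The cells were wild type and came from the lungs of BALB/cJ mice, described as females of 6 to 8 weeks, which had received 0.5 µg IL-33 intranasally each day for 3 days. The sorted cells were kept for 24 h, either with 250 µM melatonin (3 samples) or with an equal volume of its solvent DMSO (vehicle, 3 samples). The paper gives IL-2 and IL-7 in the medium for its metabolic assays of such cells. RNA was reverse transcribed from oligo-dT by the SMARTer low-input method, which does not keep the strand. Nothing states whether the 3 samples of a group came from separate mice or cultures, so p-values measure the spread between these samples only.

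A lncRNA is transcribed, and mostly spliced and polyadenylated, like a messenger RNA but is not classed as coding for a protein. Some lncRNAs act as scaffolds of nuclear bodies, as *Neat1* does for paraspeckles, some carry microRNAs in their introns, and some affect the gene beside them by being transcribed. Others bind RNA-binding proteins or microRNAs in the cytoplasm, and for many listed by a number alone no role is established.

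Estimated read totals were 17056200 to 20511800 per sample. All 12 markers of ILC2s were listed, with summed normalized counts of 151561 to 169434 with melatonin and 216971 to 231136 with vehicle. Of the 12, *Rora* and *Il1rl1* were called higher, 7 lower (among them *Klrg1* at −2.16 and *Thy1* at −2.88), and *Gata3*, *Icos* and *Ptprc* were not called. Markers of other cells moved with treatment. The 6 markers of NK cells and ILC1s summed to 85.0 to 214 with melatonin and 6020 to 7285 with vehicle, most of it *Gzma*. The 6 T cell markers listed summed to 2127 to 3175 and 6049 to 6577, most of it *Trbc2*, *Trbc1* and *Cd3g*. Of the same list, *Trac* averaged 0.958 with melatonin and 8.34 with vehicle and *Cd3d* 2.32 and 11.8, and *Cd4*, *Cd8a*, *Cd8b1* and *Cd5* were not listed. The 6 macrophage markers listed summed to 364 to 829 and 1406 to 1591, the 2 B cell markers listed to 131 to 162 and 289 to 322, and the only endothelial marker listed, *Pecam1*, stood at 310 to 416 and 1001 to 1066. The sums of the 7 epithelial markers overlapped, at 1042 to 1237 and 935 to 2325, but their members parted. *Epcam* rose from 667 to 1098, and *Scgb1a1*, *Sftpc*, *Sftpa1* and *Krt8* fell. With vehicle *Scgb1a1* stood at 95.2, 21.6 and 1045 and *Krt8* at 4.67, 8.35 and 105, so that vehicle replicate 3 carries most of both. With melatonin *Scgb1a1* was listed at 0, 0 and 1.005 and *Krt8* at 0. The 3 listed markers of neutrophils and eosinophils summed to at most 4.37 and to 15.9 to 70.9, the 3 of mast cells and basophils to at most 49.3 in any sample, and no fibroblast marker was listed. Their part in the lncRNA differences was not tested. In bulk samples, fewer cells of a type and less RNA per cell cannot be told apart.

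The libraries also differed in transcripts of the sex chromosomes. The Y-linked genes *Ddx3y*, *Eif2s3y*, *Kdm5d* and *Uty* were at 0 in melatonin replicates 2 and 3, and *Ddx3y* stood at 1071 in melatonin replicate 1 and at 746 to 907 with vehicle. *Xist*, the X-inactivation lncRNA, was at 579 and 1091 in melatonin replicates 2 and 3, at 0 in melatonin replicate 1 and at 5.81 to 13.6 with vehicle. Y-linked transcripts in melatonin replicate 1 and in all vehicle samples are at odds with the description of the mice as females. Libraries with and without them were not balanced between the groups, and melatonin replicate 1 differed in them from replicates 2 and 3. Member results are therefore also given without melatonin replicates 2 and 3, that is over the libraries with Y-linked transcripts, where the lone melatonin sample is assumed to vary like the others.

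Melatonin changed the make-up of the abundant lncRNAs more than their sum. The test was limma on log2(normalized count + 1), with p-values adjusted over all 14419 genes tested and called at 0.05. By it, 21 members (27.6%) were higher with melatonin, 26 (34.2%) were lower and 29 were not called. Among all genes tested, 24.5% were called higher and 24.7% lower. Among the 532 other autosomal lncRNA genes tested, all with a mean under 100, 7.14% were called higher and 13.2% lower. Protein-coding genes with a mean of at least 100 numbered 9298, of which 31.9% were higher and 24.9% lower. The median log2 fold change (melatonin against vehicle) was −0.04 over the members and −0.00 over all genes tested, and the members ran from −5.75 to 2.21. A change of at least 1 in either direction and an adjusted p under the threshold were found for 15 members, 6 up and 9 down. The groups did not overlap in 26 members that stood higher and 27 that stood lower, against 30.0% and 30.3% of all genes tested. Over the libraries with Y-linked transcripts, 20 members were higher and 20 lower, with 36 of the 47 calls kept, 11 lost, 4 gained and none turned. Of all genes, 23.5% were higher and 25.9% lower in that fit. Without vehicle replicate 1, 17 members were higher and 17 lower, while the shares of all genes also fell, to 19.0% and 18.9%.

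**Figure D1:**
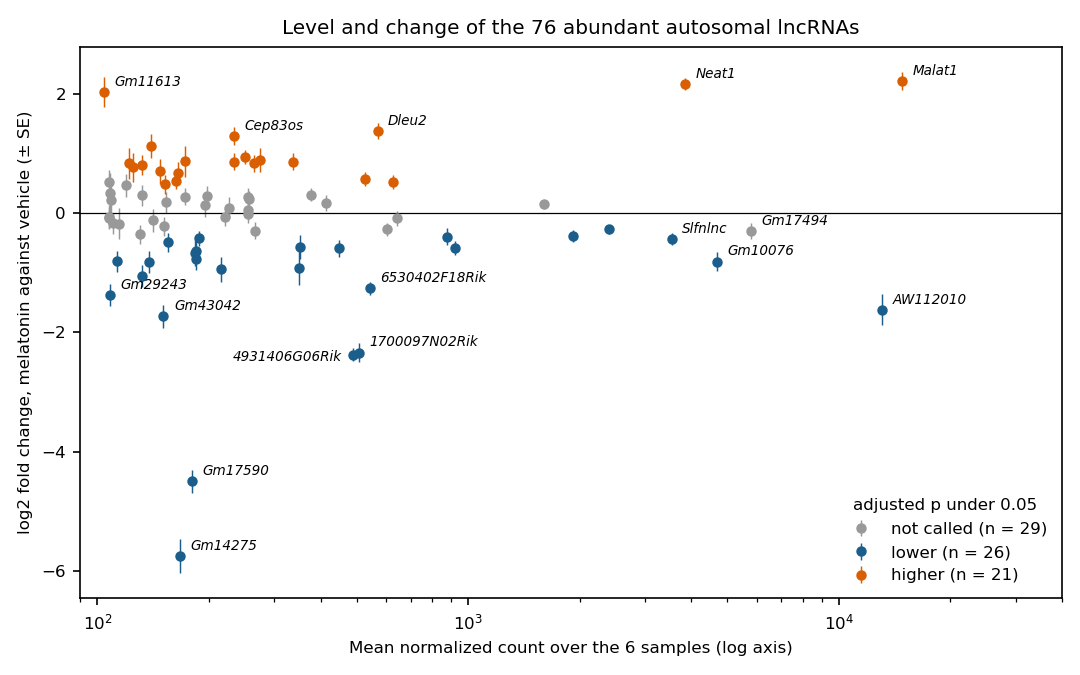
Mean normalized count over the 6 samples (x, log axis) and log2 fold change of melatonin against vehicle with its standard error (y) for the 76 members, coloured by call. *Malat1* and *Neat1* stand at the top right with changes of 2.21 and 2.16, *AW112010* is the only member with a mean over 1000 and a change below −1, and *Gm17590* and *Gm14275* lie lowest at −4.50 and −5.75.

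The summed normalized count of the 76 members was 69354, 73707 and 69569 with melatonin and 72236, 67632 and 60907 with vehicle, or 0.323% to 0.396% of each sample. The sums overlapped. Within that sum, *Malat1* took 38.0%, 35.9% and 29.0% with melatonin and 8.33%, 8.35% and 6.88% with vehicle. *Neat1* took 7.87% to 10.0% and 1.84% to 2.32%. *AW112010* moved the other way, from 27.3% to 30.3% with vehicle to 5.54%, 10.4% and 12.1% with melatonin. The other 73 members together held 45.0% to 51.05% with melatonin and 59.5% to 63.5% with vehicle. The leading RNA of the set was therefore *AW112010* in each vehicle sample and *Malat1* in each melatonin sample.

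**Figure D2:**
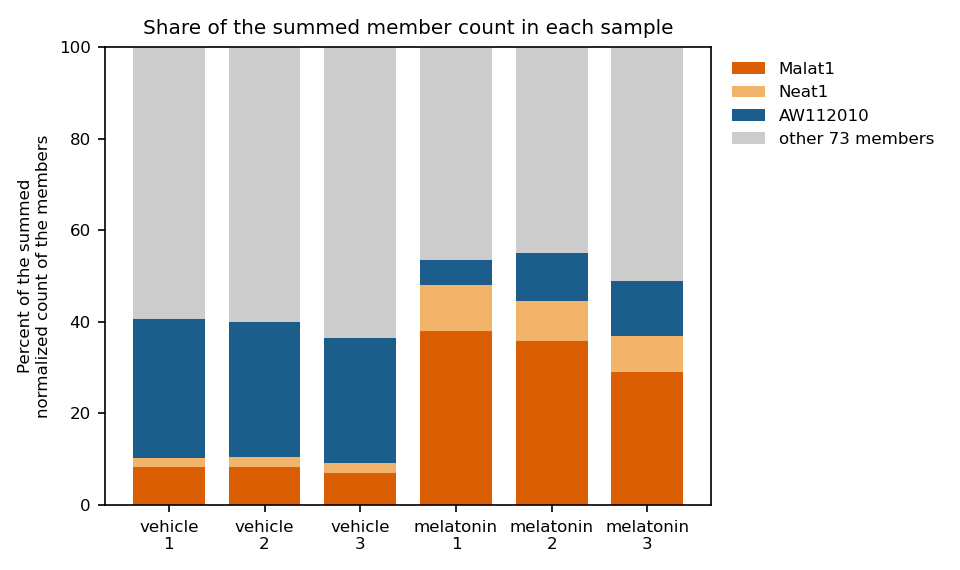
Percent of the summed normalized count of the 76 members (y, bars from 0 to 100) taken by *Malat1*, *Neat1*, *AW112010* and the other 73 members in each of the 6 samples (x). *Malat1* fills 29.0% to 38.0% of the melatonin bars and 6.88% to 8.35% of the vehicle bars, and *AW112010* fills 27.3% to 30.3% of the vehicle bars.

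Counted per kilobase of the representative transcript, the order of levels was different. Reads were counted over all exons of a gene, so these levels and ranks depend on the transcript chosen. *AU020206* has 375 bases in its representative transcript and 7351 over all its annotated exons, and *Gm17494* has 1800 and 8421. *Malat1* (7886 bases) and *Neat1* (22397 bases) have the same length either way. *AW112010*, whose transcript has 450 bases, led with 29077 normalized counts per kilobase, averaged over the 6 samples. It was followed by *Gm10076* at 4270, *Gm17494* at 3215, *AU020206* at 2338 and *Malat1* at 1877. That average joins groups that differ. *Malat1* ranked 3 with melatonin, at 3083 ± 458 (SD, n = 3) per kilobase, within the spread of *Gm10076* and *Gm17494* on either side, and 12 with vehicle, at 670 ± 122, while *AW112010* and *Gm10076* ranked 1 and 2 in both groups. *Neat1*, with 22397 bases, ranked 5 by normalized count and 32 per kilobase, at 172, averaged over the 6 samples. By group it ranked 17 per kilobase with melatonin, at 281 ± 33.3, and 55 with vehicle, at 62.3 ± 2.75. Replicates spread by a median coefficient of variation of 15.4% with melatonin and 9.23% with vehicle, and 10 members exceeded 25% with melatonin against 5 with vehicle. The widest was *Gm43549* with melatonin, at 50.2%. Just inside the level of 100 lay *1600020E01Rik* at 107, *Gm11131* at 107 and *Gm11613* at 104, and just outside lay *Eldr* at 96.4, *Zbtb11os1* at 94.3 and *5033430I15Rik* at 93.1.

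The largest rises were of the nuclear scaffold RNAs. *Malat1*, an RNA of nuclear speckles, and *Neat1*, around which paraspeckles form, lie next to each other on the minus strand of chromosome 19 of GRCm39, at chr19:5845717-5853602 and chr19:5874736-5897132. Each is annotated as a single exon. *Malat1* stood at 26369, 26433 and 20144 normalized counts with melatonin and at 6014, 5647 and 4193 with vehicle. *Neat1* stood at 6941, 6448 and 5474 with melatonin and at 1326, 1445 and 1415 with vehicle. For both, every melatonin sample was above every vehicle sample. The rise of *Malat1* was 4.60-fold in the group means, with a log2 fold change of 2.21 (SE 0.15, adjusted p = 3.08e-05). That of *Neat1* was 4.51-fold, with a log2 fold change of 2.16 (SE 0.10, adjusted p = 4.37e-06). With the Y-linked libraries alone they were 2.34 and 2.31 (adjusted p = 0.000482 and 4.8e-05). A gene of unsettled class on the opposite strand, *Gm37376*, shares 453 exon bases with *Malat1*, 5.74% of it, and its reads cannot be told apart from *Malat1* there. It stood at 9237 to 11578 with melatonin and 1718 to 2386 with vehicle (log2 fold change 2.29).

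The 3′ ends of *Malat1* and *Neat1* are known to be cut by RNase P, which leaves an A-rich tract in place of a poly(A) tail, and the tract folds with upstream U-rich stretches into a triple helix. The letters AAAAAGCAAAA (sense strand) were found in the representative transcript of these 2 members and of no other member. They occur in 1.00% of the 16334 transcripts of listed genes, and in 2.7% of the 3333 with at least 5000 bases, of which 6 are members. The element and its surroundings, read from GRCm39 at chr19:5845990-5846120 and chr19:5874716-5874846 on the minus strand, are shown because both RNAs share them, with the 11 letters in capitals.
Malat1: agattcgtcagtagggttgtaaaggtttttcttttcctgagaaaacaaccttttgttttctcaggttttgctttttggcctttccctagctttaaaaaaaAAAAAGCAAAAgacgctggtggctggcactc
Neat1: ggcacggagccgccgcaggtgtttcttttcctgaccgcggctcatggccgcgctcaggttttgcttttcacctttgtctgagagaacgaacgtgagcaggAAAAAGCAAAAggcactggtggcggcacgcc
The annotated *Neat1* transcript ends with the last of these letters, while that of *Malat1* runs on for 293 bases. How an oligo-dT primed library samples such ends was not tested.

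The starts of both genes and of the members with the largest fall (*Gm14275*) and a leading microRNA host (*Dleu2*) are shown from 250 bases before to 50 bases after the start of the representative transcript, the latter 50 in capitals. They were read 5′ to 3′ on the gene's strand from GRCm39 at chr19:5853553-5853852 (minus), chr19:5897083-5897382 (minus), chr2:172129673-172129972 (plus) and chr14:61919879-61920178 (minus).
Malat1: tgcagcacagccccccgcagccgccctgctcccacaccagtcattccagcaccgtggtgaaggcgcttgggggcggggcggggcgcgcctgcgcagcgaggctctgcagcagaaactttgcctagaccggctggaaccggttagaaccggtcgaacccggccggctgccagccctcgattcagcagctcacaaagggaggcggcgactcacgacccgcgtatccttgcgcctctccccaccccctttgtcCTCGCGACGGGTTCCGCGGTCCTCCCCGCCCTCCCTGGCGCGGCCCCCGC
Neat1: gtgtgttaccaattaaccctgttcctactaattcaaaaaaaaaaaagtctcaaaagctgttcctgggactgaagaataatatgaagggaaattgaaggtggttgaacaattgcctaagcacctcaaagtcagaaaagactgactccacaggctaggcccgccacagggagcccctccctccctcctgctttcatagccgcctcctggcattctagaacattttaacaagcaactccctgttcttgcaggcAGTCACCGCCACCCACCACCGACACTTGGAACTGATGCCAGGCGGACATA
Gm14275: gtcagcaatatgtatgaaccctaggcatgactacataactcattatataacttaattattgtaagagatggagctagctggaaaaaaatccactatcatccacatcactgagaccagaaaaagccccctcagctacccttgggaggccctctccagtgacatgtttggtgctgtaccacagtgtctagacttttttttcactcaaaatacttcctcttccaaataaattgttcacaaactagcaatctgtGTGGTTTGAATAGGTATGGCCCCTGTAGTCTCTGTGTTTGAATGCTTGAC
Dleu2: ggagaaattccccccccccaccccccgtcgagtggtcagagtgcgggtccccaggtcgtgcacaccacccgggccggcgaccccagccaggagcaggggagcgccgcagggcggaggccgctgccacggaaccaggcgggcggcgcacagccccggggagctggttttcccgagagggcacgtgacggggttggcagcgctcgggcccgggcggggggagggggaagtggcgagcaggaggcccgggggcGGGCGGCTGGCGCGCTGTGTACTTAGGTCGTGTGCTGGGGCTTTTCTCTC
These windows differ in base composition. The *Malat1* and *Dleu2* windows hold 71.0% and 74.7% G and C with 32 and 30 CG dinucleotides, the *Neat1* window 48.3% with 5, and the *Gm14275* window 41.0% with none. The median over all listed genes and over the members was 56.0% in both.

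Letters bound by 4 families of transcription factor were sought on both strands of these windows in all 76 members. The antioxidant response element (ARE, TGACNNNGC), through which Nrf2 drives glutathione genes, was present in 7 members and in 13.2% of the 16333 windows of listed genes, 9.21% of the members. Of the 7, *2210408F21Rik* and *Rab10os* rose, while *2410006H16Rik*, *Gm17300*, *Gm43042*, *Kcnq1ot1* and *Norad* fell. The E-box CACGTG was in 4 members (5.26%, against 8.79% of listed genes), among them *Dleu2* at position −72. The AP-1 letters TGANTCA were in 2 (2.63% against 5.82%), and the cyclic AMP response element TGACGTCA in 4 (5.26% against 2.66%), none of which was called. None of these letters was found in the windows of *Malat1*, *Neat1* or *Gm14275*. A match is a run of letters and not a bound site.

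The proteins that work with these nuclear RNAs were read from lists. Of 15 paraspeckle proteins tested, none was called higher, 9 were lower and 6 were not called, with a median of −0.40. Over all genes tested the median was −0.00, and 24.5% were higher and 24.7% lower. *Hnrnpa1* averaged 4107 ± 252 (SD, n = 3) with vehicle and 1695 ± 355 with melatonin (log2 fold change −1.30). *Pspc1* changed by −0.81 and *Sfpq* by −0.47, while *Nono* had −0.16 and was not called. *Neat1* therefore rose in samples in which the messenger RNAs of *Sfpq* and *Pspc1*, whose proteins bind it, fell. Of 6 nuclear speckle scaffold genes, *Rbm25* (−0.30) and *Acin1* (−0.40) fell, the others were not called and the median was −0.22. Without melatonin replicates 2 and 3 the speckle list had 4 lower, and 25.9% of all genes were lower.

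**Figure D3:**
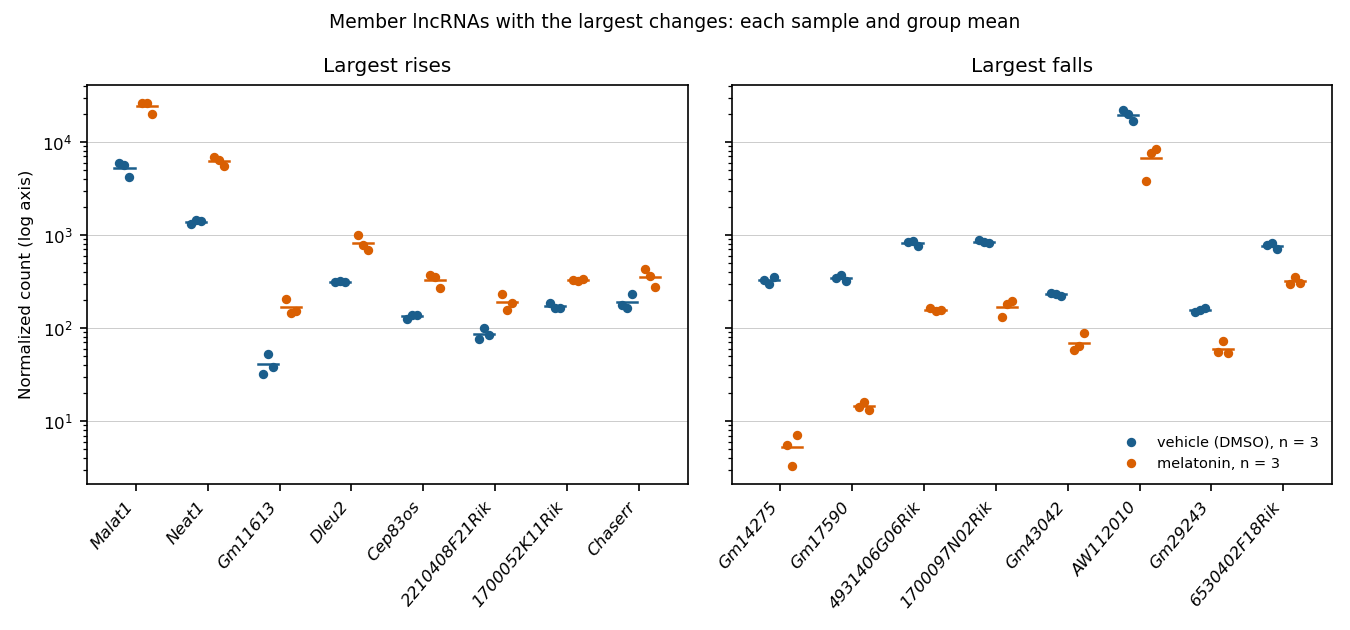
Normalized count (y, log axis) in each vehicle sample (blue, n = 3) and melatonin sample (orange, n = 3) of the 8 members with the largest rises and the 8 with the largest falls, with a line at each group mean. The 16 were chosen among called members whose groups do not overlap, and *Gm14275* drops from 301 to 357 with vehicle to 3.28 to 7.04 with melatonin.

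Of the members, 7 carry annotated microRNA genes on their own strand, and their mature sequences are shown from RefSeq for *Dleu2*, 1 of the 2 hosts that rose, and for the host of the conserved miR-22. Capitals mark the seed (bases 2 to 8), which pairs with target messages.
mmu-miR-15a-5p: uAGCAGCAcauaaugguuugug
mmu-miR-16-5p: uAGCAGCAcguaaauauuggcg
mmu-miR-22-3p: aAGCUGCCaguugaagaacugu
The first 2 share the seed AGCAGCA and come from hairpins at chr14:61869476-61869559 (*Mir15a*) and chr14:61869329-61869421 (*Mir16-1*), both inside *Dleu2* on the minus strand. The third comes from chr11:75354542-75354636 (*Mir22*) in *Mir22hg*. Mature microRNAs were not measured, since the libraries were primed from oligo-dT.

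*Dleu2* stood at 992, 783 and 698 normalized counts with melatonin and at 313, 320 and 313 with vehicle. Its vehicle samples lay close together and all melatonin samples were above them. The rise was 2.61-fold, with a log2 fold change of 1.37 (SE 0.13, adjusted p = 0.000135), and all 6 values were whole reads. *Trim13* and *Kcnrg*, on the opposite strand at this locus, share 55 and 706 exon bases with it. *Trim13* averaged 83.2 ± 14.6 with vehicle and 151 ± 11.5 with melatonin (0.87, higher).

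*Mir22hg* stood at 522, 386 and 413 with melatonin and 385, 383 and 396 with vehicle. The groups overlapped and the change of 0.17 was not called (adjusted p = 0.304), while over the libraries with Y-linked transcripts it was 0.43 (adjusted p = 0.0222). *Tlcd2*, a same-strand gene whose start is 176 bases away, fell from 475 ± 4.72 to 199 ± 20.0 (−1.26). It shares 206 exon bases with *Mir22hg* (10.7% of *Mir22hg*). No value of *Mir22hg* was at whole reads, so its values may hold reads of *Tlcd2*.

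*Gm17494*, which holds *Mir760* and overlaps *Gclm* on the other strand, stood at 4123, 5492 and 6066 with melatonin and 6506, 6264 and 6270 with vehicle. The groups did not overlap, yet the change of −0.30 was not called (adjusted p = 0.0856). Melatonin replicate 1 was the lowest, and over the libraries with Y-linked transcripts the change was −0.62 (adjusted p = 0.000801). *Gclm*, the regulatory subunit of the enzyme that starts glutathione synthesis, rose from 1666 ± 389 to 4232 ± 426 (1.37) and shares 869 exon bases with it. *Gm17494* also matches *Ppia* over 40.8% of its transcript at 98.9% identity, so its reads may be shared with that gene.

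*Gm15987*, with *Mir7649*, fell from 537 ± 50.02 to 358 ± 66.7 (−0.59, adjusted p = 0.00989), a call lost without melatonin replicates 2 and 3 (−0.30). *2310001H17Rik* fell from 226 ± 54.5 to 141 ± 29.3 (−0.67), kept in 2 of the 6 fits without 1 sample and lost without melatonin replicates 2 and 3 (−0.37, adjusted p = 0.313). *AU020206* (−0.39, adjusted p = 0.0408) was called although its groups overlapped and was kept in 1 of those 6. *Gm11613*, whose microRNA gene lies at its start, rose by 2.03 on the log2 scale and is described with the divergent members.

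Of 15 microRNA processing genes, 3 were higher, 6 lower and 6 not called, with a median of −0.26, beside 24.5% higher and 24.7% lower over all genes tested. *Ddx17*, a helicase of the Drosha complex, fell from 707 ± 94.8 to 379 ± 69.7 (−0.91), and *Drosha* and *Ago2* fell by 0.44 and 0.57 on the log2 scale. *Dgcr8* rose by 0.41, *Prkra* by 0.54 and *Ago4*, at 22.4 ± 4.08 with vehicle, by 1.09.

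The most abundant lncRNA that fell was *AW112010*, an interferon-inducible RNA of mouse immune cells from which a peptide is also translated. It lies at chr19:11021549-11033246 on the minus strand and shares no exon base with a listed gene. It stood at 3845, 7676 and 8439 with melatonin and at 21920, 19992 and 16634 with vehicle. No melatonin sample reached the lowest vehicle sample, and melatonin replicate 1 was far under both others of its group. The fall was 2.93-fold, with a log2 fold change of −1.62 (SE 0.26, adjusted p = 0.00121), and −1.27 to −1.84 when any 1 sample was left out. With melatonin replicate 1 as the only melatonin sample it was −2.33.

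Of the lncRNAs with an established name, *Norad*, which binds Pumilio proteins, stood at 1714, 1534 and 1735 with melatonin and 2393, 2240 and 1922 with vehicle (−0.39, SE 0.10, adjusted p = 0.0117). The groups did not overlap, but the call was kept in 4 of the 6 fits without 1 sample. The call was not kept over the libraries with Y-linked transcripts, where the change was −0.34. *Gm7292* matches *Norad* over 98.2% of its length and had −0.36 (adjusted p = 0.0822). *Oip5os1*, known as Cyrano and as a trigger of miR-7 decay, stood at 1701, 1655 and 1681 with melatonin and 1536, 1550 and 1468 with vehicle. Its groups did not overlap, but the difference was 0.15 and not called (adjusted p = 0.127).

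*Slfnlnc*, of the Schlafen locus, stood at 2651, 3043 and 3336 with melatonin and 4485, 4063 and 3656 with vehicle, without overlap (−0.44, adjusted p = 0.0101). *Morrbid*, which in myeloid cells restrains the death gene *Bcl2l11* beside it, averaged 279 ± 32.8 with melatonin and 235 ± 20.5 with vehicle, with overlap (0.24, not called). *Lockd*, downstream of the cell cycle inhibitor *Cdkn1b*, averaged 547 ± 61.4 and 658 ± 41.7 (−0.27, adjusted p = 0.0701), also with overlap. *Dubr* averaged 417 ± 40.4 and 336 ± 16 without overlap (0.31, adjusted p = 0.0519), and was called over the libraries with Y-linked transcripts (0.46, adjusted p = 0.0248). *Arhgap27os3* (−0.29), *Mypopos* (0.30) and *Foxd2os* (0.52) were not called, while *Foxd2*, 134 bases from the start of the last, rose from 9.74 to 34.6.

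At imprinted loci, *Kcnq1ot1*, which is made from the paternal allele and silences its neighbours, stood at 122, 140 and 167 with melatonin and 294, 177 and 205 with vehicle (−0.63, SE 0.21, adjusted p = 0.0350). *Peg13*, within *Trappc9*, stood at 221, 127 and 125 with melatonin and 106, 70.3 and 81.8 with vehicle (0.83, SE 0.26, adjusted p = 0.0275). *Trappc9*, which shares 1293 exon bases with *Peg13* on the same strand, was also called higher (0.45). The groups overlapped for neither *Kcnq1ot1* nor *Peg13*, and each has 1 replicate far from the others of its group. The call was kept in 2 of the 6 fits without 1 sample for *Kcnq1ot1* and in 3 for *Peg13*. Over the libraries with Y-linked transcripts *Kcnq1ot1* was not called (−0.85, adjusted p = 0.0575), nor was it with the replicate block, while *Peg13* was (1.37, adjusted p = 0.00945). *Gt(ROSA)26Sor*, the ubiquitous transcript of the Rosa26 locus, rose from 422 ± 12.7 to 630 ± 80.6 (0.57, adjusted p = 0.00381).

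Most members cannot be read free of another gene. Of the 76, 39 share exon bases with a listed gene, 8 have a near-identical copy elsewhere (at least 95% identity over at least 30% of the transcript), 3 span 2 protein-coding genes on their own strand, and 26 are in none of these classes, though 17 of them share exon bases with annotated genes that are not listed. Since the strand was not kept, and the authors' counting divides reads among genes, values of the first 3 classes may hold reads of the other gene. The counts by class are read beside 24.5% higher and 24.7% lower over all genes tested, and differences between classes were not tested. Of these 26, 6 were higher and 10 lower, with a median of −0.10. Of the 39, 14 were higher and 11 lower (0.13), of the 8 copies none was higher and 5 were lower (−0.49), and of the 3 spanning genes 1 was higher (0.27). Of the 10 members that share no exon base with any annotated gene, 1 was higher and 5 were lower (−0.43). These 10 include *Gm43042* (−1.73, lower), which is also counted among the 8 with near-identical copies. Of the 9 members of a single exon 5 rose and 3 fell (0.80), and of the 67 spliced members 16 rose and 23 fell (−0.07).

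**Figure D4:**
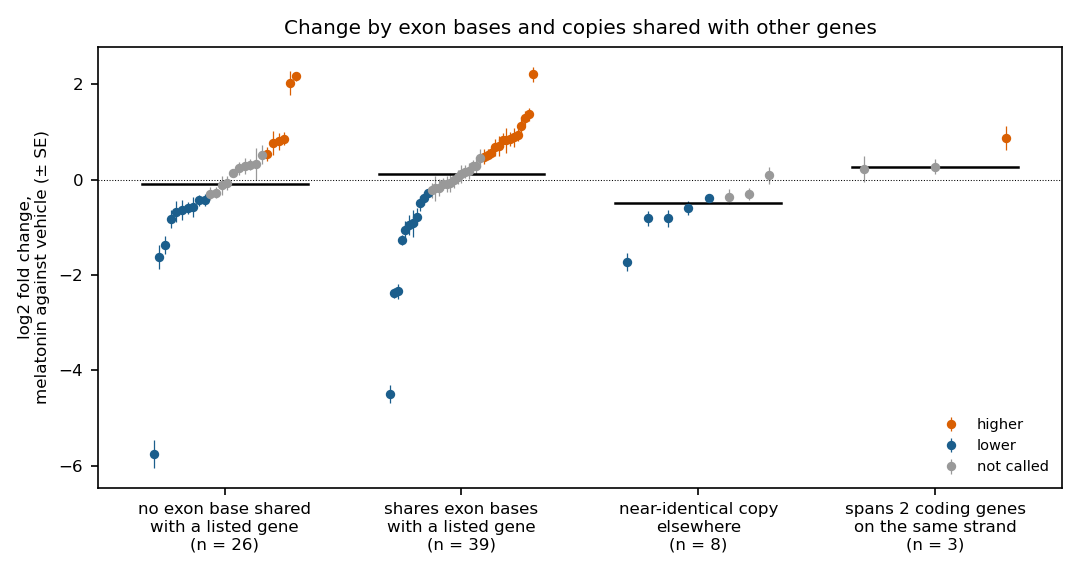
Log2 fold change of melatonin against vehicle with its standard error (y) for members grouped by the exon bases or copies they share with other genes (x), each group sorted by value and coloured by call, with a line at the median. The 26 members in none of the other classes have a median of −0.10 and span from −5.75 to 2.16, and the 8 with near-identical copies lie between −1.73 and 0.09.

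The largest change of any member was in an RNA that shares no exon base with a listed gene. *Gm14275*, of unknown role, lies at chr2:172129923-172132440 on the plus strand with 2 exons, and 126 of its 560 exon bases (22.5%) are shared with *Gm40008*, a lncRNA on the other strand that is not listed. It stood at 5.60, 3.28 and 7.04 with melatonin and at 329, 301 and 357 with vehicle. In reads this was 16 over the 3 melatonin libraries (exact Poisson 95% interval 9.15 to 26, counting error only) and 1014 over the 3 vehicle libraries. The fall was 62.0-fold, with a log2 fold change of −5.75 (SE 0.28, adjusted p = 6.76e-06) and −5.50 to −5.95 when any 1 sample was left out. *Gm29243*, also at whole reads, stood at 55.1, 72.1 and 53.3 with melatonin and 148, 155 and 166 with vehicle (−1.37, SE 0.19, adjusted p = 0.000541). It shares 444 exon bases (8.68%) with *Gm4889*, a pseudogene on the same strand that is not listed.

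Of this class, *Neat1*, *AW112010* and *Gm11613* are described elsewhere. *Gm20627* fell by 0.82 and *4933404O12Rik* by 0.59, while *4632427E13Rik* rose by 0.86, *2810013P06Rik* by 0.80, *Gm33989* by 0.76 and *5031425E22Rik* by 0.54 on the log2 scale. Over the libraries with Y-linked transcripts, 3 of these 6 were no longer called. They were *Gm20627* (−0.48, adjusted p = 0.0806), *5031425E22Rik* (0.56, adjusted p = 0.0531) and *Gm33989* (0.54, adjusted p = 0.264), which was also kept in only 2 of the 6 fits without 1 sample and lost with the replicate block. *Gm28875* (−0.57) was called with overlapping groups, was kept in 1 of the 6 fits without 1 sample and stood at −0.07 (adjusted p = 0.71) over the libraries with Y-linked transcripts. Together with *AU020206* it makes the 2 calls of 47 in which the groups overlapped.

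Among members on shared exons, the 3 largest falls were of RNAs that overlap, on the other strand, a gene that also fell. *Gm17590* lies across from the cell cycle kinase *Cdk6* at chr5:3522845-3530877 and shares 503 exon bases with it, 40.2% of its own. It stood at 14.01, 16.1 and 13.1 with melatonin and at 341, 375 and 321 with vehicle, a 24-fold fall (−4.50, SE 0.19, adjusted p = 3.34e-06). *Cdk6* fell from 4117 ± 413 to 1360 ± 513 (−1.66).

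*4931406G06Rik* (chr16:90841544-90853565) shares 63.4% of its exon bases with *Epcip* on the other strand. It stood at 164, 151 and 156 with melatonin and 844, 860 and 756 with vehicle (−2.38, SE 0.11, adjusted p = 4.71e-06), and *Epcip* fell from 363 ± 45.5 to 55.9 ± 19.4 (−2.73). *Paxbp1*, which starts 113 bases from it, had 0.42 and was not called.

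*1700097N02Rik* (chr17:30841412-30845879) shares exon bases with *Glo1*, the methylglyoxal-detoxifying enzyme that uses glutathione (90 bases), and with *Dnah8* (207 bases). It stood at 131, 180 and 195 with melatonin and 883, 842 and 811 with vehicle (−2.34, SE 0.16, adjusted p = 2.59e-05). *Glo1* fell from 8295 ± 348 to 5353 ± 474 (−0.63) and *Dnah8* from 1042 ± 104 to 419 ± 95.4 (−1.33). *6530402F18Rik* fell from 766 ± 55.4 to 319 ± 27.7 (−1.26, adjusted p = 8.17e-05), while *Ntng2*, on the same strand over 558 bases, averaged 14.3 with vehicle and 21.4 with melatonin and was not called.

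Besides *Malat1* and *Dleu2*, other members on shared exons rose. *Cep83os* stood at 372, 354 and 270 with melatonin and 126, 139 and 137 with vehicle (1.29, SE 0.16, adjusted p = 0.000323), while *Cep83*, which starts 11 bases away on the other strand, had −0.02. *2210408F21Rik* stood at 232, 156 and 187 with melatonin and 76.5, 100 and 83.8 with vehicle (1.12, adjusted p = 0.00184). *1700052K11Rik* stood at 332, 321 and 333 with melatonin and 184, 165 and 164 with vehicle (0.94, adjusted p = 0.000426), and *Tlk2*, which covers 55.0% of its exon bases from the other strand, had −0.04.

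*Chaserr*, whose transcription holds down the chromatin remodeller *Chd2* next to it, stood at 428, 366 and 276 with melatonin and 175, 163 and 235 with vehicle (0.89, SE 0.20, adjusted p = 0.00596). The groups did not overlap, and the gap between them was the narrowest at melatonin replicate 3 and vehicle replicate 3. *Chd2* shares 2030 exon bases with it and averaged 742 ± 64.4 and 680 ± 31.7 (0.12, not called). *Rab10os* rose from 515 ± 47.6 to 739 ± 77.4 (0.52) beside *Rab10*, which shares 842 bases and rose by 0.56.

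Taking for each of these members the protein-coding gene with the most shared exon bases, 36 had one that was tested. Both were called for 13, in the same direction for 9 and in opposite directions for 4, among them *Lrrc75a* against *2410006H16Rik*, *Dph5* against *A930005H10Rik* and *Abca3* against *D330041H03Rik*. No background of random pairs was drawn for these counts. The call of *A930005H10Rik* was kept in 2 of the 6 fits without 1 sample and was lost with the replicate block. It was also lost over the libraries with Y-linked transcripts, where the change was 0.42 beside 0.48 over all samples. The member alone was called for 9, the coding gene alone for 8 and neither for 6. All exon bases of *2410006H16Rik* lie in *Lrrc75a*, yet it fell from 234 ± 36.6 to 136 ± 19.6 (−0.78) while *Lrrc75a* rose by 0.75.

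For members with copies, the copy is given beside them. *Gm10076* stood at 2707, 3261 and 4302 with melatonin and 6760, 5613 and 5440 with vehicle (−0.81, SE 0.16, adjusted p = 0.00330). It matches *Rpl41*, a ribosomal protein, over 35.2% of its length at 99.2% identity, and *Rpl41* had −0.94. *Gm10874* fell by 0.81 and matches *Got2* over 69.5%, which had −0.77. *Gm43042* stood at 57.9, 64.5 and 87.5 with melatonin and 241, 232 and 221 with vehicle (−1.73, adjusted p = 0.000208), and 99.8% of its transcript is matched in 56 other genes, so its reads cannot be placed with certainty. For all 8 of this class the values are uncertain in this way.

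Many lncRNAs start beside a protein-coding gene and may share its promoter. For 34 members a tested protein-coding gene starts within 5000 bases. Of these genes 10 were higher and 8 lower, with a median of 0.03, shares near those over all genes tested (24.5% and 24.7%). No background of random pairs was drawn for the counts of pairs that follow. Both the member and its neighbour were called in 9 pairs, in the same direction in 5 and in opposite directions in 4. The member alone was called in 8, the neighbour alone in 9 and neither in 8. The 5 pairs that moved together were *1700097N02Rik* with *Glo1*, *Gm44851* with the protease gene *Furin*, *Gm10069* with the chaperone gene *Fkbp4*, *Gm17300* with *Rcc1*, and *2810013P06Rik* with *Ankrd11*. The pairs with *Glo1*, *Furin* and *Rcc1* share exon bases, and strand was not kept. *Gm17300* also shares 705 exon bases with *Snhg3* on the other strand, which fell by 1.28 on the log2 scale. The call of *Gm44851* was kept in 3 of the 6 fits without 1 sample and that of *Gm10069* in 2. Of the 9 pairs with no shared exon base, both genes were called in 3, in the same direction in 2 and in opposite directions in 1.

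Opposite directions were found for *Brip1os* (−0.27) and the helicase gene *Brip1* (0.64), *D030028A08Rik* (−0.94) and *Cdk5rap3* (0.27), *Gt(ROSA)26Sor* (0.57) and *Setd5* (−0.65), and *Gm11613* and *Mllt6*. The pairs with *Brip1*, *Cdk5rap3* and *Setd5* share 286, 294 and 163 exon bases, and strand was not kept. *Gm11613*, which shares no exon base with a listed gene, stood at 207, 144 and 151 with melatonin and 31.7, 52.5 and 37.8 with vehicle. It rose 4.12-fold (2.03, SE 0.25, adjusted p = 0.000325) without overlap. *Mllt6*, which starts 2829 bases away on the other strand, fell from 874 to 335 (−1.42). *Brip1os* stood at 2099, 2170 and 2259 with melatonin and 2693, 2648 and 2545 with vehicle, a small change (adjusted p = 0.0135) whose call was lost without vehicle replicate 1 and without vehicle replicate 2.

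**Figure D5:**
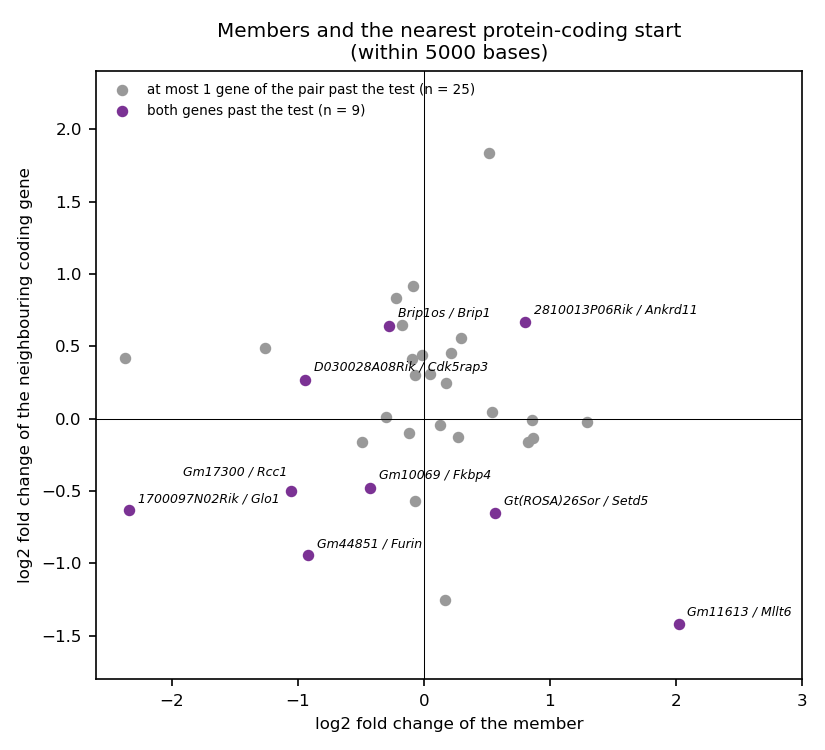
Log2 fold change of 34 members (x) and of the protein-coding gene that starts nearest to each, within 5000 bases (y), with the 9 pairs in which both passed the test in purple. Of these 9, 5 lie in the quadrants of equal sign and 4 in those of opposite sign, *Gm11613* and *Mllt6* farthest out at 2.03 and −1.42.

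Genes of RNA decay, to which many lncRNAs are subject, were read as background to the members. Of 22 genes of the nuclear exosome and its adaptors, 1 was higher, 14 lower and 7 not called, with a median of −0.29. *Dis3*, a catalytic subunit, fell from 1368 ± 37.2 to 772 ± 154 (−0.85) and *Rbm7*, an adaptor, rose by 0.30. Of 16 nonsense-mediated decay factors, 2 were higher, 6 lower and 8 not called, with a median of −0.21. *Magohb*, of the exon junction complex, fell by 0.99 on the log2 scale and *Upf3a* rose by 0.31. Without melatonin replicates 2 and 3 the decay factors had 0 higher and 8 lower. The background for these counts is that of all genes, 24.5% higher and 24.7% lower, and the relation of these genes to the members was not tested.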

How the data were processed

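The members and gene lists were chosen with earlier results of these data known. Per the methods of the study, the authors trimmed reads in Partek Flow 12.9.0, aligned them with STAR 2.7.8a to mm39, counted them over Gencode M33 by Partek's E/M method, which divides reads among genes, and normalized by DESeq2's median ratio. The deposited values are this signal, called normalized counts here. A gene's values counted as whole reads when within 0.02 of a multiple of the value of 1 read. Genes that reached 10 in any sample were fitted in R 4.3.3 with limma 3.58.1 (lmFit, eBayes with trend, two-sided) on log2(value + 1), adjusted by Benjamini-Hochberg over 14419 genes. Fold changes on this scale understate those of low genes. An exact permutation test of 3 against 3 cannot give a p below 0.1. The script was tested on simulated data.

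Biotypes, positions and exons came from GENCODE M39 (GRCm39, the assembly of mm39), which held 16334 of the 16381 genes. Copies were found with BLAST 2.17.0 (at least 50 bases at 95% identity) and overlaps with bedtools 2.31.1. The last identifier number in the table is 109618, and 26290 of the 32884 lncRNA genes annotated have later identifiers and were not analysed here. Named members were the 8 largest rises and falls without overlap, the 8 most abundant, microRNA hosts, those with an established symbol and those at the level of 100. Members outside that rule were named after their values were seen. Promoter windows came from GRCm39 (all 76 members) and mature microRNAs from RefSeq (5 of 9 microRNA genes matched). Alternatives were other pseudocounts, filters, scalings, thresholds, sample weights, no trend, a replicate block, a transcript length correction, the libraries with Y-linked transcripts, other member rules and each sample left out. Values of single genes withheld for evaluation are not reported here.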

Additional observations from a re-analysis of the deposited data

How the results depend on the processing

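Over 20 alternatives, no member call turned to the opposite direction. Of members called higher there were 16 to 21 when each sample was left out in turn, and of members lower 17 (without vehicle replicate 1) to 25. Of the 47 calls, 31 were kept in all 6 of these fits and 13 were lost without vehicle replicate 1, and as many without vehicle replicate 2. At an adjusted p under 0.01, 14 members were higher and 16 lower, and of those with a log2 change of 1 or more either way, 6 and 9. All genes higher and lower then numbered 2188 and 2267, and 866 and 1392. Neighbouring protein-coding genes higher numbered 6 without the trend or with the transcript length correction, 5 at an adjusted p under 0.01, and 1 with a change of 1 or more, where 2 were lower. The median log2 fold change of members was −0.0893 with upper quartile scaling, −0.0011 with quantile normalization, 0.0059 with sample weights, 0.0453 with the length correction (all genes −0.0987) and −0.0448 to −0.0012 with samples left out. It was 0.0570 over the 140 genes with a mean of at least 50, and −0.4337 over the 10 members with no exon base shared with another gene, of which 10.0% were higher. The log2 fold change of AU020206 became 0.0233 with the length correction. The cause of these shifts was not tested, beyond the smaller number of samples or members. Same-numbered samples did not deviate together (correlations −0.054, 0.006 and −0.048), and with the replicate block 19 members were higher and 25 lower.

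The precision rests on 3 samples a group. Reads shared between overlapping or near-identical genes, which the estimated counts divide, limit 50 of the 76 members, and values of a few reads, as of Gm14275 with melatonin, carry counting error beside the spread.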
